A study of Homo sapiens with 2 samples.

Results

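The 10 tubulin genes described here were the β-tubulins TUBB, TUBB2A, TUBB2B, TUBB2C, TUBB3, TUBB4 and TUBB6, and γ-, ε- and δ-tubulin, TUBG1, TUBE1 and TUBD1. They were chosen by gene name, with earlier results of these data known, as 10 of the 30982 names on the arrays. Every probe that carried one of these names was kept. The 10 genes had 17 probes of 60 bases among the 41000 transcript probes of each array, and each of the 17 was printed at 1 spot. TUBB had 3 probes, 5 genes had 2 probes, and TUBB2B, TUBG1, TUBE1 and TUBD1 had 1 each. TUBB2C is now named TUBB4B and TUBB4 is now TUBB4A. The names of the files are kept below.

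The samples were 2 cultures of Y79, an established human retinoblastoma line that grows in suspension, each hybridized to 1 one-colour oligonucleotide array. One culture had no siRNA, and the other was harvested 48 h after treatment with an siRNA against Ep-CAM (EPCAM), an epithelial adhesion molecule. The study's methods state that both cultures had been exposed to 5′-azacytidine, a DNA demethylating agent, which the sample labels do not mention. The control was untreated, so an effect of Ep-CAM loss and an effect of siRNA delivery as such cannot be told apart. The comparison asked which transcripts differed after silencing of Ep-CAM. With 1 array per group there was no replicate of either condition, no test could be made, and all ratios compare these 2 arrays.

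Microtubules are built from dimers of α- and β-tubulin, and vertebrates have several β-tubulin genes, the isotypes, which encode very similar proteins that differ most at their C-terminal tails. γ-Tubulin nucleates microtubules within a ring complex at the centrosome, and δ- and ε-tubulin act at centrioles. TUBB3 is widely used as a neuronal marker, TUBB2A and TUBB2B are strongly expressed in the nervous system, and TUBB6 is broadly expressed outside it. The coding parts of β-tubulin genes are alike, so where a probe lies matters for which isotypes it can tell apart.

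The next pair of probes is shown because both cover the same stretch of β-tubulin but had different ratios. All 60 bases align, and the 10 bases that differ are in capitals.
TUBB2A: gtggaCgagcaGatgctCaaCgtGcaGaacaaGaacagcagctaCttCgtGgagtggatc
TUBB2C: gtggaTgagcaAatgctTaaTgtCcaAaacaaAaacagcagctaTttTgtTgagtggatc

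Among the β-tubulin probes 1 other pair of different genes overlapped at 70% identity or more. It is shown because both probes were bright. The probes overlap by 50 bases, and the 9 differing bases within that overlap are in capitals.
TUBB: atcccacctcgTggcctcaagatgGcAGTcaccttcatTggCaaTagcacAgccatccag
TUBB3: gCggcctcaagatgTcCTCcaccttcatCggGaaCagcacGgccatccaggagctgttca

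The next probe was designed from an expressed sequence tag and reads the opposite strand. It is shown because its capitals, 43 bases, are complementary to the TUBB probe above.
Opposite strand: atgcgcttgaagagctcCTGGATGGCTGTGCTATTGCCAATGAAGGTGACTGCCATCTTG

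The single probes of the centrosomal and centriolar tubulins are shown because they are the only readings of those genes on the arrays, together with the bright TUBB6 probe.
TUBE1: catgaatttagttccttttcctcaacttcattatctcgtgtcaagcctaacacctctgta
TUBG1: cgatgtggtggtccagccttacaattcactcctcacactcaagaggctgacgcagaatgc
TUBD1: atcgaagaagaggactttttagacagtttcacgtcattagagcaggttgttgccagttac
TUBB6: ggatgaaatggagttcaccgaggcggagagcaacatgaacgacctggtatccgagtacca

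The processed signal used below is the brightness of a spot after background subtraction, in arbitrary units, and each array was divided by its median over the transcript probes, 48.8 in untreated and 50.0 in siRNA-treated cells. Spots well above background made up 70.4% and 68.0% of the transcript spots. Ep-CAM itself had 1 probe, which was dim on both arrays, so the siRNA label was not checked by its target. Of the retinoblastoma and photoreceptor markers, CRX, OTX2, ARR3 and GNB3 were well above background on both arrays, while the probes of NRL, RCVRN, NEUROD1, PDE6H and SYP were so on neither. Of the pigment epithelium markers RPE65 was dim on both arrays, while BEST1, RLBP1 and TYR were well above background on both. The glial markers GFAP, AQP4 and S100B and the epithelial markers KRT8 and KRT19 were also well above background on both. The fibroblast markers COL1A1, COL1A2 and COL3A1 and the blood markers PTPRC, CD3E and CD14 were so too. In all, 8 of the 16 probes of the retinoblastoma and photoreceptor list were measured on both arrays. Its brightest probe read 202 in untreated cells, below CD3E at 815 and CD14 at 543. Signals of different probes are not a comparison of transcript amounts. The only marker of another cell type past 2-fold was HBB, 1 of the 5 tested probes of a blood list, at 331 in untreated and 1235 in siRNA-treated cells. Its part in the tubulin values was not tested. The spread that could be measured was technical. The SD of the log2 ratio over repeated spots had a median of 0.14 over 193 probes, and of 0.09 over the 20 of them brighter than 1000. It leaves out the variation between cultures.

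Ratios are siRNA-treated over untreated, on the log2 scale, and 1 or more made a probe higher and -1 or less made it lower. Of the 17 tubulin probes, 14 were measured on both arrays, 2 were well above background on 1 array and have only a bound, and 1 was dim on both. Of the 16 that could be called, 2 were called higher, against a background of 1.27% of all 29396 probes tested, and 1 was called lower, against 0.925%. The probes called were 1 of TUBB2A and the probe of TUBB2B, both higher, and that of TUBE1, lower. The TUBB2B call is a bound, from a probe that could be called only through its siRNA-treated reading. The 29396 tested probes also include probes well above background on 1 array only. At the looser limits of 1.5-fold up and 0.55-fold down, 5 tubulin probes were higher (background 4.00%) and 1 lower (background 1.68%). The 5 were both TUBB2A probes and 1 each of TUBB2B (by its bound), TUBB3 and TUBB6. Probe numbers are small, and probes of related sequence are not independent readings. The members were chosen with earlier results of these data known, so the counts are not independent of that choice.

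**Figure D1:**
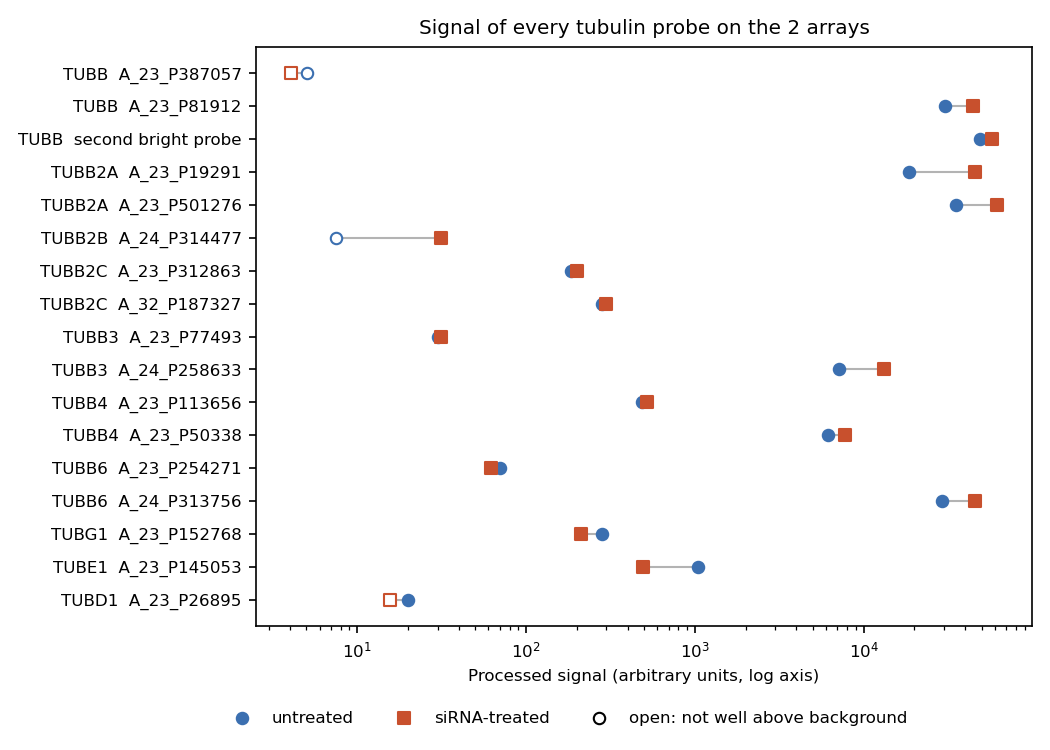
Processed signal (x axis, arbitrary units, log scale) of all 17 tubulin probes (y axis) on the untreated (circles) and siRNA-treated (squares) array, with 1 array per condition and open symbols for spots not well above background. The bright β-tubulin probes lie further right on the siRNA-treated array, the dimmer probes of TUBB2C, TUBB3 and TUBB4 nearly coincide, and TUBE1 lies further left. The length of a line shows the change, while the position of different probes along the axis is not a comparison of transcript amounts.

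TUBB2A had the probe with the largest log2 ratio among the measured tubulin probes. This probe, A_23_P19291 on chromosome 6, from 3099034 to 3099093 (hg17, minus strand), read 18550 in untreated and 45860 in siRNA-treated cells. This is a 2.41-fold difference, or a log2 ratio of 1.27, and 0.419% of all measured probes had a ratio as high. The spot lay in a corner of the array where ratios were more variable. The log2 ratios of the 86 measured spots within 5 rows and columns of it had a median of 0.06 and an SD of 0.25, so the probe was 1.21 above its surroundings.

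The other TUBB2A probe, A_23_P501276, lies at 3099399 to 3099458 of the same chromosome, upstream of the first on the transcribed strand, and its spot was far from that corner. It read 35208 and 61427, a log2 ratio of 0.77, or 1.70-fold. Both probes of TUBB2A were thus brighter in siRNA-treated cells, and they differed from each other by 0.50, which exceeds the technical SD. No pixel of either spot was saturated.

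TUBB2B lies next to TUBB2A, with 70657 bases between their probes. Its probe A_24_P314477, at 3169750 to 3169809 on the minus strand of chromosome 6, read 7.50 in untreated cells, which was not well above background, and 31.3 in siRNA-treated cells. Set against the lowest signal well above background on the untreated array, 14.9, it was at least 2.04-fold higher. The 31.3 is itself near the lowest signal well above background on its own array, 17.5. The bound lay just past the 2-fold limit, and it was under that limit in these alternatives: at a log2 bound of 0.46 or 0.34 with the normexp background correction (all spots in the fit, or without the 1 spot below its local background), at 0.33 with the authors' series values and at 0.93 relative to probes of like brightness.

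TUBB, the isotype found in most tissues, had a bright probe A_23_P81912 at 30799884 to 30799943 on the plus strand of chromosome 6. It read 30189 and 44305 on the untreated and siRNA-treated arrays, for a log2 ratio of 0.52. On the siRNA-treated array the local background of this spot was marked as an outlier, although the spot was not. The second bright TUBB probe read 49229 and 57355, a log2 ratio of 0.19. Its spot lay in the variable corner, where the spots around it had an SD of 0.41.

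The other TUBB probe, A_23_P387057 at 30800501 to 30800560, read 5.05 and 4.08, dim on both arrays. It has a stop codon in all 3 frames of its sense strand, whereas both bright TUBB probes have an open frame. An open frame was present in 82.8% of all transcript probes, so this describes the sequence and does not place the probe in the transcript.

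TUBB3 and TUBB6 each had a bright probe with a higher reading and a dim probe without. The bright TUBB3 probe A_24_P258633, at 88529436 to 88529495 of chromosome 16, read 7119 and then 13252 with siRNA, for a log2 ratio of 0.86. The dim TUBB3 probe A_23_P77493 starts 502 bases further along the gene and read 30.1 and 31.2, a log2 ratio of 0.02. The 2 readings of this neuronal isotype therefore differed by 0.84 on the log2 scale.

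The bright TUBB6 probe A_24_P313756, at 12315997 to 12316056 of chromosome 18, read 29260 and 45477, a log2 ratio of 0.60. The dim TUBB6 probe A_23_P254271, 479 bases further along, read 70.3 and 62.3, a log2 ratio of -0.21. The probes of TUBB6 differed in direction and by 0.81 in size. Which of the readings follows the transcript was not tested.

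TUBB4, an isotype known mainly from the brain, had smaller differences. Its bright probe A_23_P50338, at 6446889 to 6446948 on the minus strand of chromosome 19, read 6182 and 7705, a log2 ratio of 0.28. Its dimmer probe A_23_P113656, at 6445645 to 6445704, read 485 and 519, a log2 ratio of 0.06, which is within the technical SD.

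TUBB2C, a widely expressed isotype, was flat at both of its probes. A_23_P312863, at 137413483 to 137413542 of chromosome 9, read 186 and 202, a log2 ratio of 0.08. A_32_P187327, at 137413938 to 137413996, read 281 and 297, a log2 ratio of 0.05. The first is the probe aligned above with that of TUBB2A, from which it differs at 10 of 60 bases. Over that same stretch of sequence the TUBB2A probe had 0.77 and the TUBB2C probe 0.08.

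**Figure D2:**
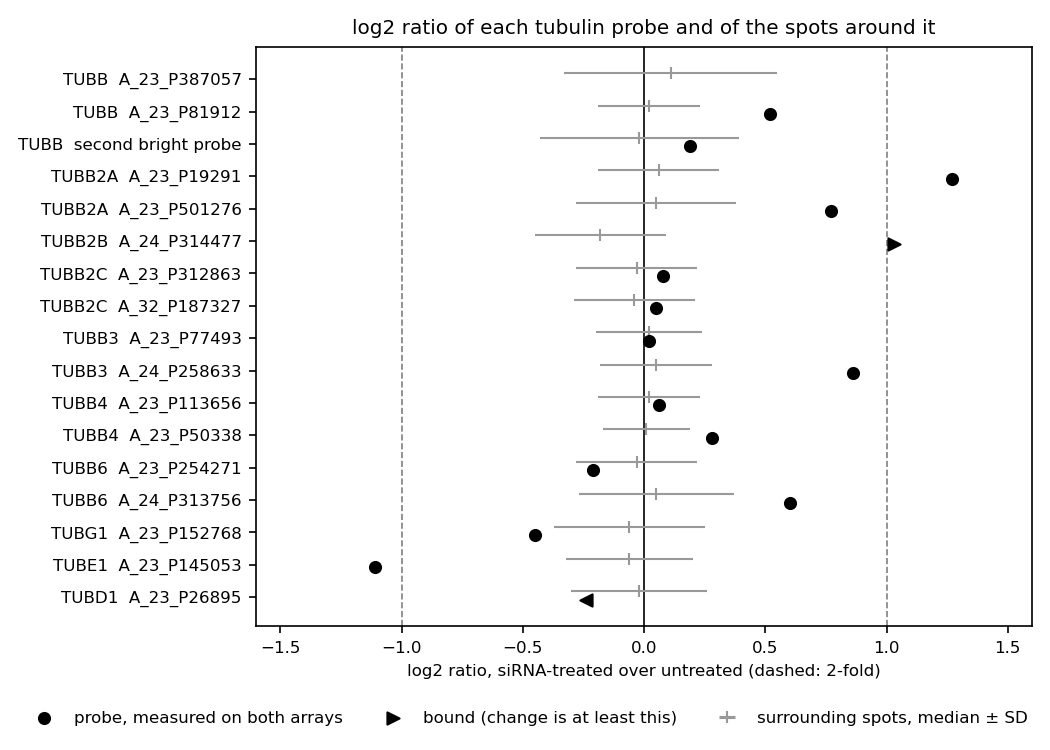
log2 ratio of siRNA-treated over untreated cells (x axis) for each tubulin probe (y axis; points, or triangles for bounds), with the median and SD of the measured spots within 5 rows and columns in grey. The bright probes of TUBB2A, TUBB3, TUBB6 and TUBB lie right of 0 and TUBE1 lies past the left dashed line. Under the normexp background correction with all spots in the fit, the bright probes of TUBB and TUBB4 and 1 of TUBB2A fall below 0. The bright TUBB6 probe is then at 0.00. With the 1 spot below its local background left out of that fit, these bright probes stay above 0.

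Brightness split the β-tubulin probes. The limit used, a geometric mean of 5000 over both arrays, was set after the values had been seen. All 7 tubulin probes above it were β-tubulins (TUBB and TUBB2A with 2 each, TUBB3, TUBB4 and TUBB6 with 1). All 7 had log2 ratios above 0, from 0.19 to 1.27 with a median of 0.60. Under the normexp correction with all spots in the fit, only 2 of 7 were above 0. Without the 1 spot below its local background in that fit, a choice made after seeing the data, all 7 were. The 5 dimmer β-tubulin probes measured on both arrays, from 4 genes, ranged from -0.21 to 0.08 with a median of 0.05. TUBB3, TUBB4 and TUBB6 had probes on both sides of this divide.

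Bright probes as a whole went the other way on these arrays with the main scaling. With quantile normalization their median log2 ratio was 0.01, and that of the bright tubulin probes was 0.86. The values that follow are from the main scaling. The 668 measured probes of any gene above the same limit had a median log2 ratio of -0.30 and an SD of 0.31, against -0.03 and 0.33 over all 26975 measured probes. Of the 668, 10.5% were above 0, and 9 probes, or 1.35%, were above 0.5. Among those 9 probes were 5 of the 7 bright tubulin probes. Ordered by ratio, the bright tubulin probes held places 1 (TUBB2A), 3 (TUBB3), 4 (TUBB2A), 5 (TUBB6), 8 (TUBB), 16 (TUBB4) and 27 (TUBB) of 668.

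The bright tubulin probes had a GC content of 43.3% to 60.0%. The 450 bright probes of any gene in that range had a median log2 ratio of -0.30, the same as all bright probes, and 1.56% were above 0.5. With the limit at 1000 the same number of tubulin probes, 7, stood against 2155 probes with a median of -0.24. With the limit at 10000 there were 5 tubulin probes with a median of 0.60, against 384 probes with a median of -0.29. Under the normexp correction with all spots in the fit, the median of the bright probes of any gene was -0.96 and that of the bright tubulin probes was -0.01. Without the 1 spot below its local background in the fit, these medians were -0.31 and 0.66. Each of these is a description of 2 arrays, with no test.

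**Figure D3:**
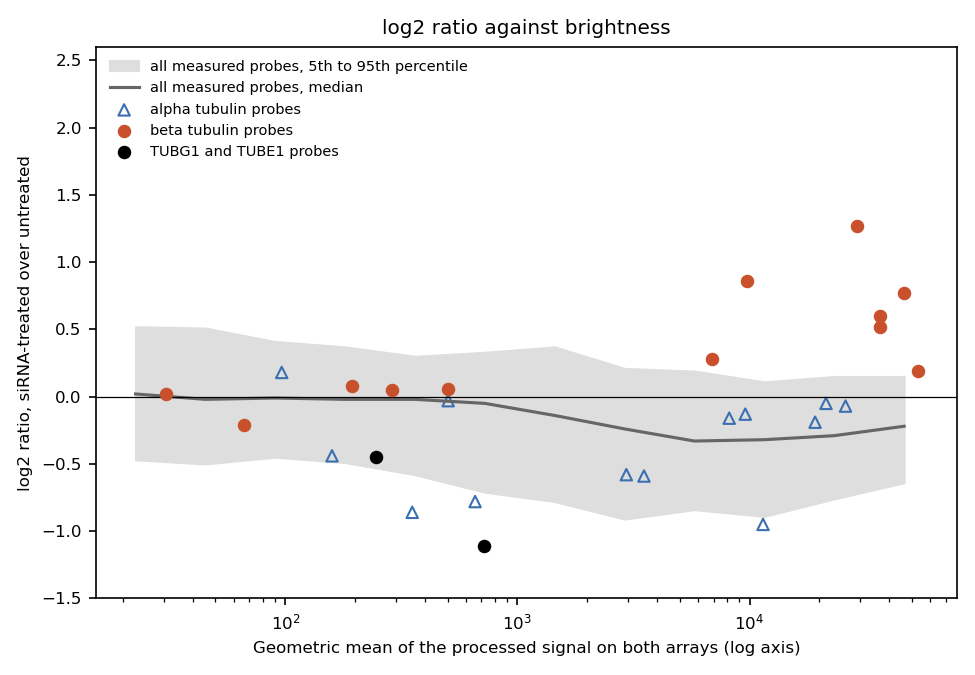
log2 ratio of siRNA-treated over untreated cells (y axis) against the geometric mean of the processed signal on both arrays (x axis, log scale), for β-tubulins (filled, red), TUBG1 and TUBE1 (filled, black) and α-tubulins (open triangles), with the median and the 5th to 95th percentile of all measured probes in grey. The bright β-tubulin probes lie above the grey band, while the median of all probes drops to about -0.30 at the bright end. Under the normexp correction with all spots in the fit both shift down, to -0.01 for the bright tubulin probes and -0.96 for all bright probes. With the 1 spot below its local background left out of the fit, they are 0.66 and -0.31. With quantile normalization they are 0.86 and 0.01.

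Probes elsewhere on the array that share sequence with a tubulin probe were searched for on both strands. The opposite-strand probe shown above, complementary to 43 bases of the bright TUBB probe, read 369 and 341 with siRNA (log2 ratio -0.15). A second such probe, from another expressed sequence tag and complementary to 47 bases of the bright TUBB3 probe, read 366 and 401, a log2 ratio of 0.10. The spot of this second probe lay in the variable corner. Neither opposite-strand probe showed the higher reading of the sense probes. Cross-hybridization between β-tubulin probes was not tested. The closest pairs of probes from different members were the pairs printed above, at 83.3% and 82.0% identity.

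Of the γ-, ε- and δ-tubulin genes only TUBE1 was called, and it was lower in siRNA-treated cells. TUBE1, the ε-tubulin gene, was read by A_23_P145053 at 112502639 to 112502698 on the minus strand of chromosome 6. It read 1042 without and 496 with siRNA, which is a log2 ratio of -1.11, or 0.46-fold, and 0.493% of all measured probes had a ratio as low. The 83 measured spots around it had a median of -0.06 and an SD of 0.26, and the spot lay outside the corner. TUBE1 was called lower under all alternatives tried, with log2 ratios of -1.54 to -1.01.

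TUBG1, the main γ-tubulin gene, had its probe A_23_P152768 at 38018548 to 38018607 of chromosome 17. It read 283 and 213, a log2 ratio of -0.45, which did not reach the limit. Its paralog TUBG2 had a probe that matched that of TUBG1 at 36 of 38 overlapping bases, and it read 152 and 163, a log2 ratio of 0.06. TUBD1, the δ-tubulin gene, had its probe A_23_P26895 at 55292477 to 55292536 on the minus strand of chromosome 17. It read 20.1 in untreated cells and 15.7 in siRNA-treated cells, where it was not well above background, so it was at least 1.18-fold lower.

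**Figure D4:**
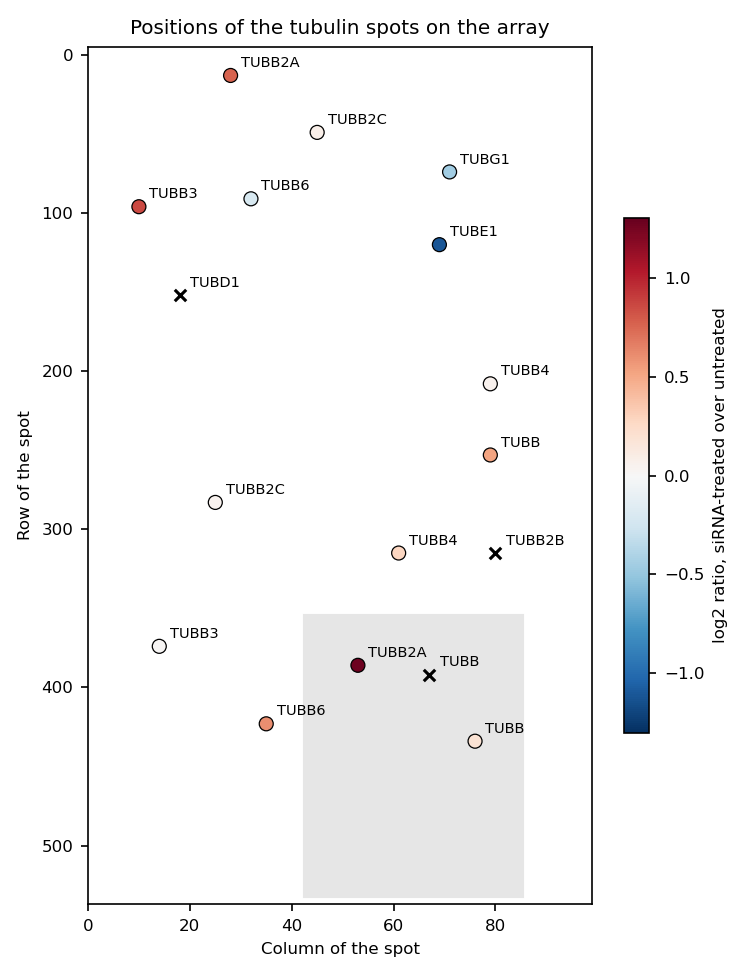
Row (y axis) and column (x axis) of each tubulin spot on the array, coloured by log2 ratio of siRNA-treated over untreated cells, with crosses for probes not measured on both arrays and the variable corner shaded. Of the 17 spots 3 lie in the corner, and the higher and lower readings elsewhere are spread over the array.

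The shaded corner spans rows 355 to 532 of 532 and columns 43 to 85 of 85. It had an SD of log2 ratio of 0.51, against 0.29 elsewhere. The corner held 17.0% of all tested probes but 71.5% of those called higher and 39.7% of those called lower. With the corner left out, 1 tubulin probe was called higher, that of TUBB2B by its bound, and TUBE1 was still called lower. The median of the bright tubulin probes left, 5 in number, was 0.60 as with the corner.

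The α-tubulins, the partners of β-tubulin in the dimer, had 15 probes from 8 genes, of which 13 were measured on both arrays and none was called. Their median log2 ratio was -0.19, with 1 of 13 above 0, but with quantile normalization it was 0.04, with 7 of 13 above 0. With the normexp correction and all spots in the fit it was -0.91, with 0 of 13 above 0. Without the 1 spot below its local background in that fit it was -0.25, with 2 above 0. The 6 bright α-tubulin probes with a measured ratio ranged from -0.95 to -0.05 with a median of -0.15, and none was above 0. These values are to be read against the -0.30 of bright probes as a whole, which was 0.01 with quantile normalization.

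TUBA1 (now TUBA4A) was the α-tubulin with the lowest ratio. Its probes read 15716 and 8315 (log2 ratio -0.95, in the corner), 4252 and 2896 (-0.59), and 3561 and 2438 (-0.58). Another probe of TUBA1, at 57806 in untreated and 62432 in siRNA-treated cells, was saturated on both arrays and has no ratio. TUBA8 read 468 and 265 (-0.86), and TUBA2 read 850 and 508 (-0.78).

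The remaining α-tubulins were closer to 0. The TUBA6 (now TUBA1C) probes had log2 ratios of -0.07, -0.16, -0.19 and -0.44, the last in the corner. TUBA3 (now TUBA1A), the main neuronal α-tubulin, read 9906 and 9279 (-0.13). The H2-ALPHA (now TUBA3D) probes had -0.03 and -0.05, and TUBAL3 had 0.18. K-ALPHA-1 (now TUBA1B) read 16.1 and 18.3, was well above background in untreated cells only, and gives no bound.

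Outside the members, TUBB8, a β-tubulin known from oocytes, read 1252 and, with siRNA, 2325 (log2 ratio 0.86). The array-wide search, which required 14 shared bases in a row and 80% identity, matched the TUBB8 probe to no member probe. The member pairs printed above share at most 12 bases in a row, so this search could miss a probe as alike. Both TUBB1 probes, for the platelet isotype, were dim on both arrays.

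**Figure D5:**
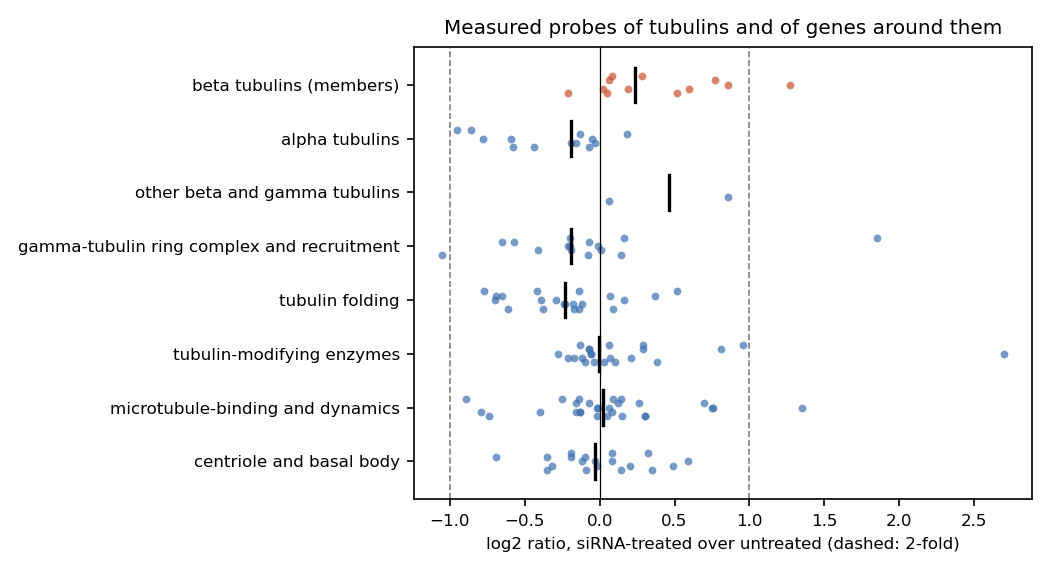
log2 ratio of siRNA-treated over untreated cells (x axis) of each measured probe (points) and the median (black bar) for the β-tubulins and for lists of related genes (y axis), with dashed lines at 2-fold. The β-tubulin probes have a median of 0.23 and the α-tubulins -0.19. The sign of the member median turns with the normexp correction (-0.27 over all measured members), and that of the α-tubulins with quantile normalization (0.04).

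The 12 measured β-tubulin probes had a median of 0.23, and 11 of them were above 0, against 44.8% of all measured probes. The 11 include both TUBB2C probes and the dimmer probes of TUBB3 and TUBB4. Those had log2 ratios of 0.02 to 0.08, within the technical SD of 0.14. Genes that act on tubulin were listed by role. The list of tubulin folding genes, which include the prefoldin and chaperonin subunits and the tubulin cofactors, had a median of -0.23 over 21 measured probes, of which 5 were above 0 and none was called. The genes of the γ-tubulin ring complex and its recruitment had a median of -0.19 over 15 measured probes, with 1 of 16 tested probes called higher and 1 called lower. The probe called higher was of CDK5RAP2, which recruits the ring complex to centrosomes, at 80.4 and 298 (log2 ratio 1.85). The probe called lower was of PCM1, a centriolar satellite protein, at 260 and 129 (-1.05), and its spot lay in the corner. Another PCM1 probe read 1997 and 1380 (-0.57), which did not reach the limit.

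The other lists had medians near the -0.03 of all measured probes. The tubulin-modifying enzymes had a median of -0.01 over 22 measured probes, and the 1 called higher of 23 tested was TTLL6, a tubulin polyglutamylase, at 65.2 and 434 (log2 ratio 2.70). That spot lay in the corner, where the surrounding median was 0.36. Another TTLL6 probe read 127 and 124 (-0.07). The microtubule-binding and dynamics genes had a median of 0.02 over 28 measured probes. The 1 called higher of 31 tested was MAP1B, a neuronal microtubule-associated protein, at 21.2 and 55.3 (1.35). The 21.2 is near the lowest signal well above background on the untreated array, 14.9. The centriole and basal body genes had a median of -0.03 over 19 measured probes, and none of the 21 tested was called.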

How the data were processed

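RNA of untreated and Ep-CAM siRNA-treated Y79 cells (1 array each, grouped by the sample labels) was hybridized to one-colour Agilent 4x44K arrays. The deposited files hold spot intensity values that the authors made with Agilent Feature Extraction, version 9.5.3.1 per the file headers and 9.1 in the sample text. The processed intensity is background-subtracted and corrected for trends within the array, and not scaled between arrays. The authors' series values equalled the raw median intensity of the spot in 100% of probes printed once and were used as an alternative.

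Transcript spots without outlier flags were used. Their intensity was divided by the array's median, floored at 0.01 and put on the log2 scale, and repeated spots were averaged. Where spots of 1 probe disagreed on the background flag, 50% of them had to be well above background. A bound replaces the dim side by the lowest signal well above background. The number of arrays limits the precision. Names came from the files, and the current symbols of all 10 genes from RefSeq (GRCh38.p14) by accession. Coordinates are those of the array design (hg17). Exons and UTRs were not analysed here. The sequence and position of 1 TUBB probe are not reported here. Probe sequences were compared without gaps, over at least 30 bases. Array-wide matches shared 14 bases and at least 80% of the overlap.

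The text describes all probes of every member and all measured probes of other tubulins. Of related lists it describes probes past 2-fold and other measured probes of the same genes. The members and lists were chosen with earlier results of these data known. Python 3.11.15 (pandas 2.3.3, matplotlib 3.10.9) and R 4.3.3 (limma 3.58.1, for normexp with an offset of 50) were used. The code that makes the calls was tested on simulated data, which does not measure the variation between cultures. Alternatives were other scalings, normexp, the series values, a floor of 5, local medians, the corner left out, other limits and dim probes kept.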

Additional observations from a re-analysis of the deposited data

How the results depend on the processing

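With 1 array per condition no replicate could be left out, and no paired analysis was possible because each group had 1 sample. Of 173 values of single tubulin probes under the alternatives, 140 moved by less than the technical SD of 0.14 and 33 by more. The floor of 5 and the corner left out changed none of these values. Scaling by another median or percentile, or none, shifted all probes nearly alike and by little. Such alternatives could hardly move a value past 0.14, so the 140 does not measure stability. None of the called probes changed sign. The number of tubulin probes called higher, 2 in the report, was 0 with the normexp background correction, 1 with normexp after removal of the 1 spot below its own local background, 1 with the authors' series values, 1 with the corner left out and 5 at ratios of 1.5 and 0.55. It was 3 with quantile normalization and 3 after subtraction of the median of probes of like brightness. The 1 call lower, TUBE1, was made under every alternative run. The median log2 ratio of the tubulin probes, 0.13, was -0.27 with normexp and 0.29 after subtraction of the median of the 500 probes nearest in brightness. That of the bright tubulin probes, 0.60, was -0.01 with normexp, 0.86 with quantile normalization and 0.89 after the subtraction for brightness. The median over the related lists, -0.07, was -0.32 with normexp. Normexp moved the median of all measured probes from -0.03 to -0.20. Without the 1 dim spot in the fit the same medians were 0.14, 0.66, -0.05 and -0.02, so that spot decides the normexp values. The fit without that spot and the subtraction for brightness were chosen after seeing the data. Dim signal limits the rest: 3 of 17 tubulin probes had no measured ratio, and none was saturated.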
